A study of Homo sapiens with 6 samples.

Results

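The 9 genes described here were higher under the RUNX1-IT1 ASO: LINC00894, FBLN7, SLC2A10, RGCC, AARD, CD93, ZIC4, EPHA7 and CACNG7. An ASO, or antisense oligonucleotide, is a short synthetic nucleic acid that base-pairs with a chosen RNA, often so that the RNA is degraded, and RUNX1-IT1 is a non-coding transcript whose gene lies inside RUNX1. The 9 genes were chosen by name from earlier results of these data, as genes averaging 1 CPM (a read count scaled to library size) or more over the 6 libraries, with all 3 RUNX1-IT1 ASO values above all 3 control ASO values. They are 9 of 771 named genes and of 1113 entries in the deposited tables. The difference between the groups chose them, so it is given as a description with no test, and no p-value is attached to any of the 9.

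The series sequenced RNA from ES2, an established human ovarian cancer cell line labelled as epithelial. In all, 3 libraries came from cells with RUNX1-IT1 knocked down by ASO, and 3 from cells given the control ASO. All cells shared RPMI-1640 medium with 10% fetal bovine serum, at 37 °C in 5% CO2, and all libraries were mRNA-focused and made from 1 µg of total RNA. The labels do not say whether the replicates were separate cultures, nor give the ASO dose, the time after delivery or the number of ASO sequences used.

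The tables hold 0.363 to 0.389% of the CPM scale in the RUNX1-IT1 ASO libraries and 1.02 to 1.11% in the control ASO libraries, so they are a small, selected part of each library. Of all 1113 entries, 32 averaged higher under the RUNX1-IT1 ASO and 1081 averaged lower, and all but 1 (PKDCC, 1.99-fold) differed at least 2-fold. RUNX1-IT1, RUNX1, RUNX2, RUNX3 and CBFB are absent from the listed entries, and the knockdown itself was not analysed here. The cell type was checked against 10 ovarian epithelial markers, of which PAX8 and ESR1 are listed, at 2.98 ± 0.602 and 0.828 ± 0.0254 CPM in RUNX1-IT1 ASO libraries, against 7.16 ± 0.733 and 2.42 ± 0.279 CPM in control ASO libraries (SD, n = 3 each). The other 8 markers are not listed, and their levels were not analysed here.

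The 9 genes belong to no single pathway. As background, CD93, EPHA7 and CACNG7 encode proteins of the cell surface membrane, SLC2A10 a sugar transporter, FBLN7 a secreted matrix protein, ZIC4 a transcription factor, RGCC a cell cycle regulator and LINC00894 a long non-coding RNA. AARD encodes a protein named for its alanine- and arginine-rich domain. Several are best known from tissues other than ovary: CD93 from endothelium and myeloid cells, ZIC4 and CACNG7 from brain, and EPHA7 from the developing nervous system.

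All 9 stood at low levels in both groups, and in bulk RNA fewer cells with a transcript and less of it per cell cannot be told apart. Group means ran from 1.42 to 3.17 CPM in RUNX1-IT1 ASO libraries and from 0.594 to 1.42 CPM in control ASO libraries. The ratio of the means, RUNX1-IT1 ASO over control ASO, was 2.08 to 2.55, with a median of 2.24. Over the whole table, 10 of the 489 named genes averaging 1 CPM or more (2.04%) had all RUNX1-IT1 ASO values above all control ASO values, and these were the 9 genes and NOX5. In the opposite direction the count was 475 (97.1%). The separation is what the genes were chosen for, so nothing is read from 9 of 9.

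**Figure D1:**
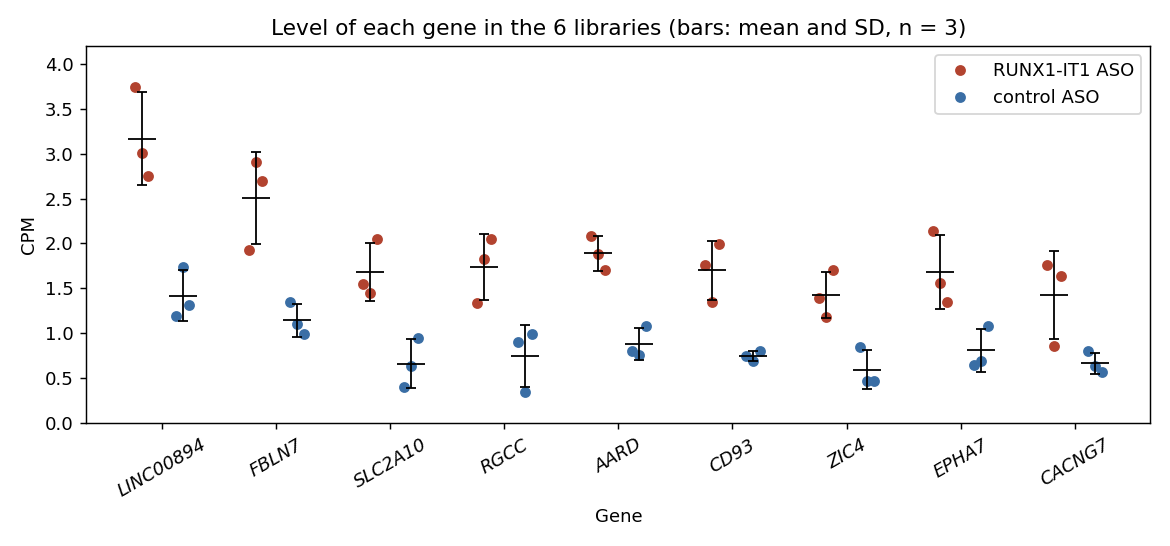
Level in CPM (vertical axis) of each of the 9 genes (horizontal axis) in the 3 RUNX1-IT1 ASO libraries (red, left of each pair) and the 3 control ASO libraries (blue, right), with the mean and SD (n = 3) as black marks. LINC00894 reaches 3.74 CPM and stands highest, and for CACNG7 the lowest RUNX1-IT1 ASO library (0.860 CPM) lies next to the highest control ASO library (0.797 CPM).

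Among the membrane receptors, CD93 is a transmembrane C-type lectin-like protein that takes part in cell adhesion and blood vessel growth. CD93 had 1.77, 1.34 and 1.99 CPM in replicates 1, 2 and 3 under the RUNX1-IT1 ASO, against 0.747, 0.695 and 0.801 CPM in replicates 1, 2 and 3 under the control ASO. Its control values were the tightest of the 9 genes, with a coefficient of variation (SD over mean) of 7.09%, against 19.3% in the RUNX1-IT1 ASO libraries. The means were 1.70 ± 0.329 and 0.748 ± 0.0530 CPM (RUNX1-IT1 ASO and control ASO, SD, n = 3 each), a 2.27-fold ratio.

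EPHA7 is an Eph receptor tyrosine kinase, which binds ephrin-A ligands on neighbouring cells. It had 2.14, 1.56 and 1.35 CPM under the RUNX1-IT1 ASO and 0.648, 0.695 and 1.08 CPM under the control ASO, in replicates 1, 2 and 3. RUNX1-IT1 ASO replicate 3 and control ASO replicate 3 came within 0.263 CPM of each other, while the other libraries of the groups lay further apart. In reads, as implied by the spacing of the values, these libraries had 23 and 23, so they differed in CPM only through the library totals. EPHA7 had the smallest ratio of the 9, 2.08-fold. Its means were 1.68 ± 0.410 CPM under the RUNX1-IT1 ASO and 0.809 ± 0.239 CPM under the control ASO (SD, n = 3 each).

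CACNG7 encodes a protein of the calcium channel gamma subunit family that acts as an auxiliary subunit of AMPA-type glutamate receptors. Its level was 1.77, 0.860 and 1.64 CPM in replicates 1, 2 and 3 under the RUNX1-IT1 ASO, and 0.797, 0.637 and 0.565 CPM in replicates 1, 2 and 3 under the control ASO. RUNX1-IT1 ASO replicate 2 stood apart from the other RUNX1-IT1 ASO libraries and only 0.063 CPM above the highest control. In reads, as implied by the spacing of the values, this pair had 16 and 16. The means were 1.42 ± 0.490 CPM under the RUNX1-IT1 ASO and 0.666 ± 0.119 CPM under the control ASO, and the coefficient of variation of 34.5% in the RUNX1-IT1 ASO libraries was the widest of the 9 genes in that group.

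SLC2A10 encodes GLUT10, a facilitative sugar transporter whose loss in humans causes arterial tortuosity syndrome. It had 1.55, 1.45 and 2.05 CPM in replicates 1, 2 and 3 under the RUNX1-IT1 ASO, against 0.399, 0.637 and 0.942 CPM in replicates 1, 2 and 3 under the control ASO. The control values were spread more widely for their level (coefficient of variation 41.3%) than those under the RUNX1-IT1 ASO (19.0%). Its 2.55-fold ratio was the largest of the 9, from means of 1.68 ± 0.321 CPM under the RUNX1-IT1 ASO and 0.659 ± 0.272 CPM under the control ASO.

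FBLN7, or fibulin-7, is a secreted matrix glycoprotein to which cells adhere. FBLN7 stood at 1.93, 2.90 and 2.70 CPM in replicates 1, 2 and 3 under the RUNX1-IT1 ASO, and at 1.35, 1.10 and 0.990 CPM in replicates 1, 2 and 3 under the control ASO. RUNX1-IT1 ASO replicate 1 was the low library of its group and control ASO replicate 1 the high library of its own, 0.580 CPM apart. The ratio of the means was 2.19.

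ZIC4 is a zinc finger transcription factor of the ZIC family, which acts in brain development. ZIC4 had 1.39, 1.18 and 1.70 CPM in replicates 1, 2 and 3 of the RUNX1-IT1 ASO group, and in replicates 1, 2 and 3 of the control ASO group 0.847, 0.463 and 0.471 CPM. Control ASO replicate 1 was the high one of its group. With a mean of 1.01 CPM over the 6 libraries, ZIC4 lay closest to the limit of 1 CPM that the choice of genes used. In GENCODE release 29, a gene annotation on GRCh38, it overlaps ZIC1 and ZIC4-AS1 on the opposite strand, so reads of these genes cannot be told apart where the counting did not use strand, and the strand setting is not given in the sources used here.

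RGCC, regulator of cell cycle, binds and activates the kinase CDK1. RGCC had 1.34, 1.83 and 2.05 CPM in replicates 1, 2 and 3 under the RUNX1-IT1 ASO, against 0.897, 0.347 and 0.990 CPM in replicates 1, 2 and 3 under the control ASO. Control ASO replicate 2 was the low library, with 6 implied reads against 18 and 21 in the other control libraries, and the coefficient of variation of 46.7% among controls was the widest of the 9 genes. The means were 1.74 ± 0.365 CPM under the RUNX1-IT1 ASO and 0.745 ± 0.348 CPM under the control ASO, a 2.33-fold ratio.

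AARD, whose function is little described, had the tightest values under the RUNX1-IT1 ASO, at 2.09, 1.88 and 1.70 CPM in replicates 1, 2 and 3 (coefficient of variation 10.2%). The control ASO libraries gave 0.797, 0.753 and 1.08 CPM in replicates 1, 2 and 3. The nearest libraries of the groups were 0.615 CPM apart, and the ratio of the means was 2.15.

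LINC00894 is annotated as an antisense long non-coding RNA on the X chromosome. Its values were 3.74, 3.01 and 2.75 CPM in replicates 1, 2 and 3 under the RUNX1-IT1 ASO, and 1.20, 1.74 and 1.32 CPM in replicates 1, 2 and 3 under the control ASO. The gap of 1.02 CPM between the lowest RUNX1-IT1 ASO library and the highest control ASO library was the widest of the 9 genes. In GENCODE release 29 it overlaps CXorf40B on the opposite strand and a processed pseudogene on its own, neither of which is listed, and the same limit on strand applies.

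These values rest on few reads. In every library the values fell on evenly spaced steps, as whole reads would give, and all of the values up to 320 steps, 1026 to 1042 per RUNX1-IT1 ASO library and 993 to 1017 per control ASO library, lay within 0.1 step of a whole number. The step was 0.0535 to 0.0586 CPM in RUNX1-IT1 ASO libraries and 0.0471 to 0.0579 CPM in control ASO libraries, which implies totals of 17100000 to 18700000 reads (RUNX1-IT1 ASO) and 17300000 to 21200000 reads (control ASO). The smallest nonzero value was a single step in the RUNX1-IT1 ASO libraries and 2 to 5 steps in the control ASO libraries, which leaves implied reads less certain for the controls. On this basis the 9 genes had 16 to 70 reads per RUNX1-IT1 ASO library and 6 to 30 per control ASO library. Summed over 3 libraries, reads ran from 77 (ZIC4 and CACNG7) to 173 (LINC00894) under the RUNX1-IT1 ASO and from 35 (ZIC4) to 82 (LINC00894) under the control ASO.

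For each gene the lowest RUNX1-IT1 ASO library and the highest control ASO library were set side by side with exact 95% Poisson intervals of their implied reads, which cover counting error only. These intervals overlapped for 9 of the 9 genes. LINC00894 had 2.75 CPM (2.02 to 3.66) in RUNX1-IT1 ASO replicate 3 and 1.74 CPM (1.17 to 2.48) in control ASO replicate 2. For CACNG7 the intervals nearly coincided, at 0.492 to 1.40 CPM in RUNX1-IT1 ASO replicate 2 and 0.456 to 1.30 CPM in control ASO replicate 1. These are the extreme libraries of each group, which the choice of genes used, and overlapping intervals are no test of a difference. With the reads of the 3 libraries of a group pooled, the intervals did not overlap for 9 of the 9 genes, which the choice of genes also favours. Nothing is read from this count, which was not made over the other genes, and pooling leaves out the spread between libraries. The pooled intervals of CACNG7 were 1.12 to 1.77 CPM under the RUNX1-IT1 ASO and 0.474 to 0.910 CPM under the control ASO. Those of LINC00894 were 2.73 to 3.69 and 1.11 to 1.74 CPM (RUNX1-IT1 ASO and control ASO).

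**Figure D2:**
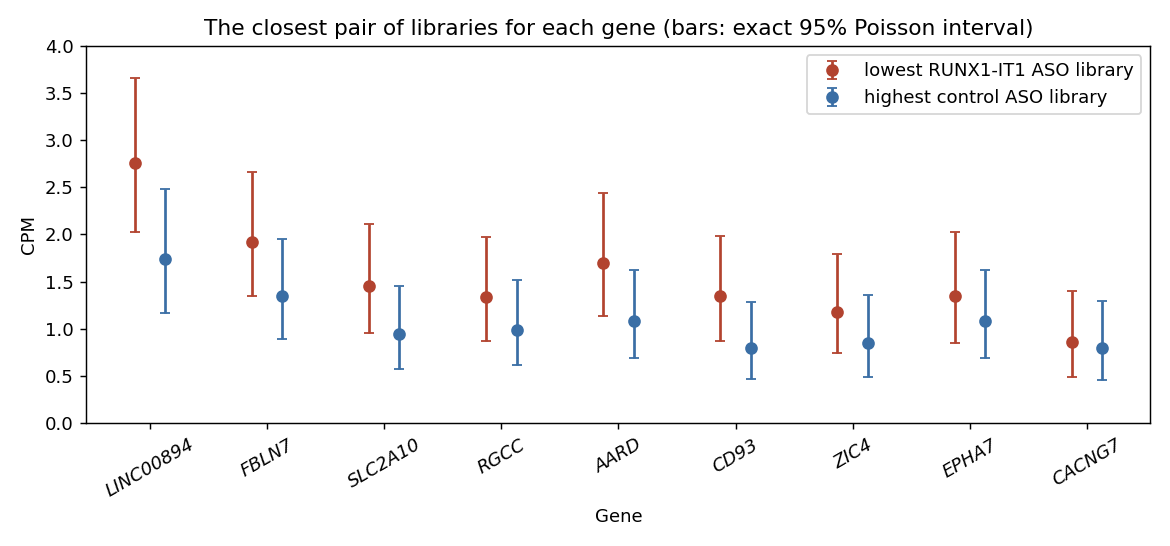
For each of the 9 genes (horizontal axis), the CPM (vertical axis) of the lowest RUNX1-IT1 ASO library (red, left) and of the highest control ASO library (blue, right), with exact 95% Poisson intervals of the implied reads as bars. The red point is above the blue one for each gene, as the choice of genes requires, and the bars of all 9 pairs overlap.

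The spread between replicates was set against counting error by the chi-square of the implied reads per degree of freedom, which averages 1 where replicates differ by counting error alone. Over the 9 genes its median was 1.39 in the RUNX1-IT1 ASO group and 1.05 in the control ASO group. With counting error alone the median of such values lies below their average of 1, so these medians are not read against 1. The highest values were 3.13 for CACNG7 under the RUNX1-IT1 ASO and 2.88 for RGCC under the control ASO, which are the genes with the outlying libraries named above. At the other end stood CD93 under the control ASO, at 0.0718, and AARD under the RUNX1-IT1 ASO, at 0.354. With 3 libraries a group these values are imprecise, and no gene was tested on them. The choice of genes whose groups did not overlap also favours small spreads.

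The same library was not high or low throughout. RUNX1-IT1 ASO replicate 2 was the lowest of its group for 4 of the 9 genes and the highest for 1 (FBLN7), and replicates 1 and 3 were each the highest for 4. Among controls, replicate 3 was the highest for 5 and replicate 2 the lowest for 4. Summed over the 9 genes, the level was 17.7, 16.0 and 17.9 CPM in replicates 1, 2 and 3 under the RUNX1-IT1 ASO, against 7.67, 7.06 and 8.25 CPM in replicates 1, 2 and 3 under the control ASO. Within each group the sums lay close together although the order of the libraries changed from gene to gene.

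Levels were compared between genes per kb of exon, using the union of annotated exons in GENCODE release 29, which makes genes with many annotated variants look lower. RGCC stood highest on the level scale of CPM per kb, with 1.30 to 1.99 in RUNX1-IT1 ASO libraries and 0.336 to 0.959 in control ASO libraries. AARD came next, at 0.704 to 0.865 CPM per kb under the RUNX1-IT1 ASO and 0.312 to 0.449 under the control ASO. Below them, under the RUNX1-IT1 ASO, the ranges of CACNG7 (0.307 to 0.630), LINC00894 (0.435 to 0.592), FBLN7 (0.293 to 0.442) and SLC2A10 (0.290 to 0.410) overlapped from neighbour to neighbour. The ranges alone do not settle the order of these genes, which were not compared within single libraries. CD93 (0.200 to 0.297), EPHA7 (0.181 to 0.287) and ZIC4 (0.138 to 0.198) closed the order and overlapped likewise from neighbour to neighbour, as did SLC2A10 and CD93.

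**Figure D3:**
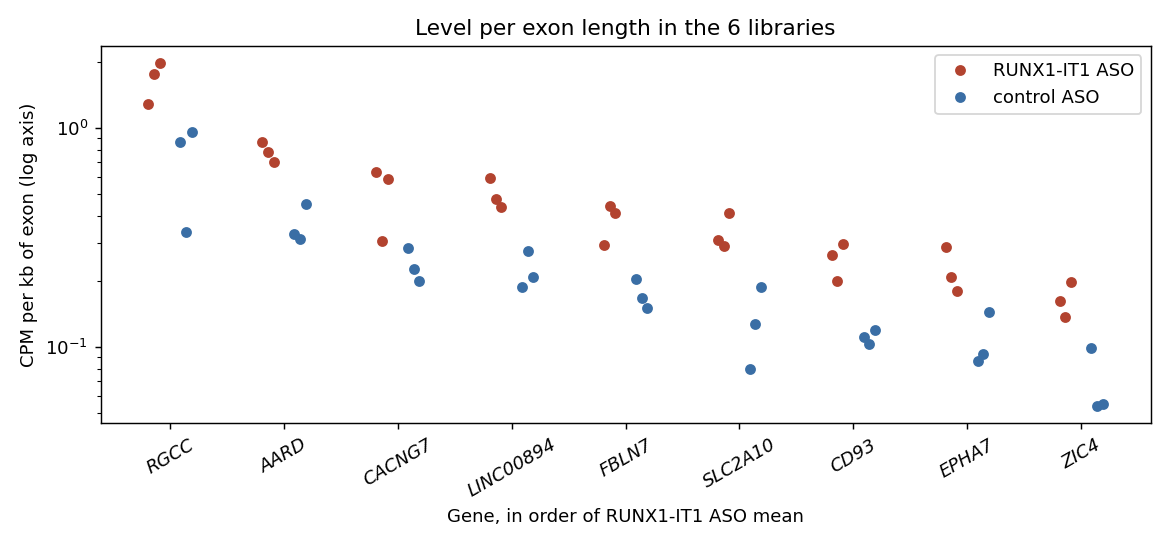
Level in CPM per kb of exon (vertical axis, log scale) of the 9 genes in order of their RUNX1-IT1 ASO mean (horizontal axis), with RUNX1-IT1 ASO libraries in red on the left and control ASO libraries in blue on the right of each pair. RGCC is highest at 1.30 to 1.99 CPM per kb under the RUNX1-IT1 ASO and ZIC4 lowest at 0.138 to 0.198.

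On the log2(CPM + 1) scale, where the added 1 shrinks the difference of genes this low, the difference of the group means ran from 0.52 ± 0.16 (CACNG7) to 0.79 ± 0.14 (LINC00894; standard errors from a limma fit over all 489 genes). These standard errors take no account of how the 9 genes were chosen and are no test of a difference. The median difference of the 9 genes was 0.62, against -1.11 over all 489 genes tested. Of the 489 genes, limma called 10 higher (2.04%) and 477 lower (97.5%) at a Benjamini-Hochberg adjusted p under 0.05. Nearly all listed entries differ at least 2-fold between the groups, so a call for most genes was fixed in advance. The split describes the listed entries only, not all expressed genes. Scaling each library to the same sum of listed entries changed this split to 43 higher and 118 lower. By construction it raises every RUNX1-IT1 ASO library and lowers every control ASO library. All 9 genes, positive before this scaling, stood at 1.33 to 1.84 after it, a widening that the scaling itself produces. NOX5 and F8A2 were the other genes with a positive difference. F8A2, which has near-identical copies, read 0, 16.6 and 9.61 CPM in replicates 1, 2 and 3 under the RUNX1-IT1 ASO and 3.54, 0 and 0 CPM in replicates 1, 2 and 3 under the control ASO, so its groups overlapped (named after its values were seen).

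**Figure D4:**
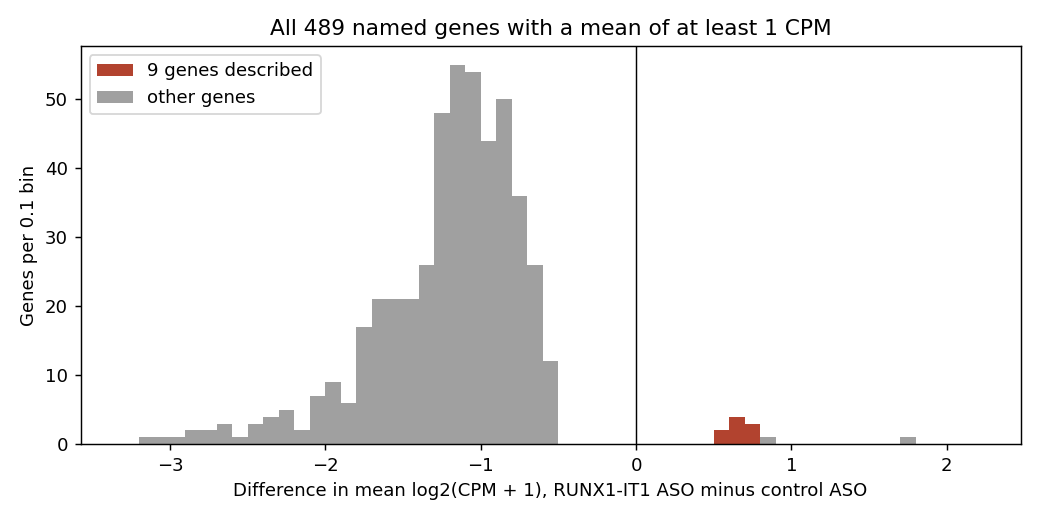
Number of genes (vertical axis) by difference in mean log2(CPM + 1), RUNX1-IT1 ASO minus control ASO (horizontal axis, bins of 0.1), for the 489 named genes averaging 1 CPM or more. The 9 genes (red) lie between 0.52 and 0.79, and the other genes (grey) centre on a median of -1.11 over all 489.

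The other 203 tested genes with a mean no higher than that of LINC00894 had a median level of 0.645 CPM under the RUNX1-IT1 ASO and 2.14 CPM under the control ASO, and the 9 genes had medians of 1.70 and 0.748 CPM (RUNX1-IT1 ASO and control ASO). The opposite order restates how the 9 were chosen and is no finding. The median coefficient of variation was 19.3% under the RUNX1-IT1 ASO and 20.5% under the control ASO for the 9 genes, against 26.8% and 15.0% (RUNX1-IT1 ASO and control ASO) for those 203. Gene by gene, the coefficient of variation was larger under the RUNX1-IT1 ASO for 3 of the 9 genes, and this was not counted for the 203. Counting error makes a coefficient of variation larger at lower levels, and the levels of the gene sets differ within each group. No trait of the 9 genes is therefore read from these spreads.

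NOX5, a calcium-activated NADPH oxidase, meets the same limits but was left out of the 9 by name. It had 2.14, 1.67 and 2.11 CPM in replicates 1, 2 and 3 under the RUNX1-IT1 ASO, against 0.598, 0.753 and 0.565 CPM in replicates 1, 2 and 3 under the control ASO. Its 3.09-fold ratio exceeded that of each of the 9 genes. Just inside the limit of 1 CPM lay ZIC4 and CACNG7, with means of 1.01 and 1.04 CPM over the 6 libraries. Just outside it, with groups that did not overlap, lay PKDCC, a secreted protein kinase gene (1.25 ± 0.171 and 0.628 ± 0.194 CPM, RUNX1-IT1 ASO and control ASO), and HOGA1, a mitochondrial aldolase gene (1.03 ± 0.0826 and 0.473 ± 0.156 CPM, RUNX1-IT1 ASO and control ASO). An entry named for the microRNA gene MIR296 stood at 1.25 ± 0.207 CPM under the RUNX1-IT1 ASO and 0.549 ± 0.173 CPM under the control ASO (SD, n = 3), and mRNA-focused libraries do not measure the mature microRNA. In all, 6 of 282 named genes under 1 CPM (2.13%) had every RUNX1-IT1 ASO value above every control ASO value, the others being PCDHB6, ATP6V1B1 and MAGED4B.

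Likeness to the 9 genes was measured as the root mean square difference, over the 6 libraries, between a gene's log2(CPM + 1) values centred on their mean and the mean centred pattern of the 9. By this measure the nearest named genes outside the 9 were HOGA1 (0.126), NOX5 (0.141), PCDHB6 (0.154), MIR296 (0.154) and PKDCC (0.170). The 9 genes themselves ranged from 0.0656 (CD93) to 0.190 (RGCC), so these 5 lay within the range of the genes that made the pattern. The pattern is mainly the difference between the groups, on which all of these genes were selected.

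The families of the 9 genes were looked up in the tables. Of 7 fibulin genes FBLN7 was the 1 listed, of 14 SLC2A transporters SLC2A10, of 5 ZIC genes ZIC4, of 14 Eph receptors EPHA7, and of 8 calcium channel gamma subunit genes CACNG7. CD93 was the 1 listed of 4 genes of its C-type lectin group, and RGCC the 1 listed of 5 cell cycle genes that included CDK1 and CCNB1. The tables hold selected entries, so the unlisted relatives were not analysed here.

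Genes of the ligand and receptor families linked to EPHA7 and CACNG7 were looked up in the same way. Of 8 ephrins, the ligands of Eph receptors, 3 were listed and 2 tested, and both tested ones were called lower by limma (Benjamini-Hochberg adjusted p = 2.46e-08 for EFNB2 and 2.05e-05 for EFNA2). EFNB2, of the ephrin-B class and not the ephrin-A class that EPHA7 binds, fell to 18.1, 16.2 and 20.0 CPM in replicates 1, 2 and 3 under the RUNX1-IT1 ASO, against 52.8, 45.7 and 50.5 CPM in replicates 1, 2 and 3 under the control ASO. EFNA2, an ephrin-A, averaged 0.602 ± 0.364 CPM under the RUNX1-IT1 ASO and 2.39 ± 0.337 CPM under the control ASO, and EFNA1, whose mean was too low for the test, averaged 0.314 ± 0.0872 and 1.11 ± 0.227 CPM (RUNX1-IT1 ASO and control ASO, SD, n = 3). GRIA1, an AMPA receptor subunit and the 1 listed of 4, fell to 0.982 ± 0.215 CPM under the RUNX1-IT1 ASO, against 3.32 ± 0.586 CPM under the control ASO (limma, adjusted p = 5.77e-06). With 97.5% of the tested genes called lower, these counts are near the background, and since the entries were selected for a difference between these samples the p-values are not independent evidence.

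Markers of cell types in which the 9 genes are better known were checked as well. None of 12 endothelial markers, PECAM1, CDH5 and VWF among them, is listed beside CD93. The listed entries are a selected part, so the levels of unlisted markers were not analysed here and no absence is read from this. Of 11 neural markers 3 were listed, and SYP, a synaptic vesicle gene, fell to 1.74 ± 0.336 CPM under the RUNX1-IT1 ASO, against 6.17 ± 0.163 CPM under the control ASO (limma, adjusted p = 2.19e-07). NES, an intermediate filament gene, fell to 0.715 ± 0.273 CPM under the RUNX1-IT1 ASO, against 1.83 ± 0.571 CPM under the control ASO (limma, adjusted p = 0.000967). SOX2, a stem cell transcription factor too low for the test, averaged 0.457 ± 0.0950 and 1.15 ± 0.278 CPM (RUNX1-IT1 ASO and control ASO). The summed level of these 3 markers was 2.42 to 3.21 CPM in RUNX1-IT1 ASO libraries and 8.69 to 9.61 CPM in control ASO libraries. They stood lower where ZIC4, EPHA7 and CACNG7 stood higher, as nearly all listed genes did, and their part in the result was not tested. Since the entries were selected for a difference between these samples, the p-values of SYP and NES are not independent evidence.

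The 9 genes lie on different chromosomes except SLC2A10 and CD93, which are on chromosome 20 far apart from each other. In GENCODE release 29 on GRCh38, FBLN7 lies on chromosome 2 from 112138385 to 112188216, RGCC on chromosome 13 from 41457559 to 41470882 and SLC2A10 on chromosome 20 from 46709487 to 46736347. CD93 lies on chromosome 20 from 23079349 to 23086340, ZIC4 on chromosome 3 from 147386046 to 147406860, EPHA7 on chromosome 6 from 93240020 to 93419547 and CACNG7 on chromosome 19 from 53909335 to 53943941. LINC00894 spans 149938628 to 150224580 on chromosome X. None of the 9 lay within 1 Mb of another. Within 1 Mb, listed neighbours were found for FBLN7 (BCL2L11 and IL1A, 2 of 64 annotated genes), SLC2A10 (WFDC3, 1 of 63) and AARD (RAD21-AS1, 1 of 17). All 4 stood lower under the RUNX1-IT1 ASO with no overlap between the groups. So did 738 of all 771 named genes, and 97.1% of the 489 tested, which leave out WFDC3. This is near the background. IL1A, a cytokine gene, averaged 1.50 ± 0.275 CPM under the RUNX1-IT1 ASO and 4.33 ± 0.387 CPM under the control ASO. RAD21-AS1, 61331 bases from AARD, averaged 0.625 ± 0.114 and 2.02 ± 0.322 CPM (RUNX1-IT1 ASO and control ASO, SD, n = 3).

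Sequence upstream of the transcription start was taken from RefSeq on GRCh38.p14, which gave windows of 300 bases, 250 before and 50 after a start, for 5 of the 9 genes (FBLN7, SLC2A10, RGCC, ZIC4 and EPHA7, 10 windows in all). The 250 bases before the start are printed for FBLN7, RGCC and 1 start of EPHA7, because these lie ahead of the GENCODE starts too. They are written 5′ to 3′ on the gene's strand, and capitals mark the GC box letters GGGCGG or CCGCCC and the CCAAT box letters CCAAT or ATTGG. The positions are chr2:112138135-112138384 on the plus strand for FBLN7, chr13:41457300-41457549 on the plus strand for RGCC, and chr6:93419560-93419809 on the minus strand for EPHA7.
FBLN7: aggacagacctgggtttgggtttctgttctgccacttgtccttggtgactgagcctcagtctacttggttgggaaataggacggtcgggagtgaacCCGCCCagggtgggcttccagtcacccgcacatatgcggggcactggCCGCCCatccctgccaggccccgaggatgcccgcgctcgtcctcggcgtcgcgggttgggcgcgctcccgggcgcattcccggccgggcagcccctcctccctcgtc
RGCC: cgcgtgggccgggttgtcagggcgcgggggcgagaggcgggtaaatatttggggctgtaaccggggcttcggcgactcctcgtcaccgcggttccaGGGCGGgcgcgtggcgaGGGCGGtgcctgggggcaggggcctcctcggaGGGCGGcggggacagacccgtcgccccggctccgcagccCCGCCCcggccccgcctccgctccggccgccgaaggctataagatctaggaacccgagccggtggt
EPHA7: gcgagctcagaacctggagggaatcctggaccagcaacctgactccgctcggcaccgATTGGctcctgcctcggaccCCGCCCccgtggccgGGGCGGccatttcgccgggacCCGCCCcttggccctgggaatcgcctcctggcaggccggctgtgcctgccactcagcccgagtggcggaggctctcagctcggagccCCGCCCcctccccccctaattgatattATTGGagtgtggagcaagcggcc

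Each of the 5 genes had GC box letters in at least 1 window. In all, 7 of the 10 windows held them, against 45.0% of the 35116 windows in the RefSeq table. These windows are not independent: those at the other starts of EPHA7 overlap and hold the same GC box. ZIC4 had the letters in 1 of its 4 windows. The 45.0% is a share of windows and gives no background for a count of genes. RGCC had 5 such matches in its window, 4 of them before the start and shown above, EPHA7 had 4 at the start shown, and FBLN7 had 2. CCAAT letters were found in 4 of the 10 windows (EPHA7 and ZIC4), against 34.6% of all windows, and TATAAA or TTTATA in 1 (another start of EPHA7), against 11.5%. The RUNX core letters TGTGGT or ACCACA were in 0 of the 10 windows, against 13.1% of all windows. Likewise 0 of 10 held the AP-1 letters TGANTCA (7.71% of all), the CRE letters TGACGTCA (1.85%) or the E-box letters CACGTG (7.26%). Both strands were searched, and a match or its lack describes these letters in these windows only. The share of G and C was 69.3% for FBLN7, 76.7% for RGCC and 78.0% for SLC2A10, against a median of 58.7% over all windows. EPHA7 had 68.3% at the start shown and 63.3 and 58.0% at its other starts, and ZIC4 had 43.3 to 59.7% over its 4 windows.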

How the data were processed

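RNA from 6 ES2 libraries was measured, 3 per group, grouped by their titles. Per the submitters' processing notes, reads were handled with FastQC 0.11.9 and fastp 0.22.0 on GRCh38; aligner, counter, annotation, strand setting and the filter that left 1113 entries are not given in the sources used here. CPM is the unit of the deposited values, as read from the numbers themselves; 342 entries carry no symbol (9.35 to 10.4% of the listed CPM) and were kept out of the main fit. In R 4.3.3, limma 3.58.1 with a mean-variance trend was fitted to log2(CPM + 1), group as the only term, for the 489 named genes averaging 1 CPM or more. The fit was tested on simulated data. There most genes were unchanged and changes went in either direction at random. That test therefore does not cover a table with nearly all genes lower. On the deposited values the fit gave the background and standard errors, and no p-value for the 9 genes. Implied reads, from the spacing of the values, gave Poisson intervals; no count test was run. The labels do not name separate cultures, so calls rest on a spread between replicates that may be technical. The genes and lists were chosen with earlier results of these data known. Named genes were the 9, NOX5, the 3 highest under 1 CPM with groups that did not overlap, the 5 most alike, listed members of fixed gene families and marker lists, and listed neighbours within 1 Mb. Of the 9 symbols, 9 matched GENCODE release 29. Alternatives covered the pseudocount, the filter, rescaling, each library left out, a replicate block, the trend and the unnamed entries.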

Additional observations from a re-analysis of the deposited data

How the results depend on the processing

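The median difference of the 9 genes (0.62) moved to 1.07 with a pseudocount of 0.1, 0.82 with 0.5, and 1.53 after scaling each library to the same sum of listed entries, and stayed within 0.58 to 0.68 when each library was left out. The pseudocount acts by construction on genes near 1 CPM. Genes called higher by limma (10 of 489) numbered 19 of 771 with no filter on low values and 18 of 749 with a mean of at least 0.5 CPM. They numbered 43 of 489 after this scaling and 20 of 670 with unnamed entries included. Genes higher with groups that did not overlap (10 of 489) numbered 16 of 771 with no filter and 16 of 749 with a mean of at least 0.5 CPM. After this scaling they numbered 81 of 489. Leaving out each library gave 10 to 11 for both counts. With pseudocounts of 0.1 and 0.5 and with no mean-variance trend limma called 10. With a library left out, single-gene differences of the 9 ran from 0.41 to 0.88; their positive sign is fixed by how the genes were chosen. Same-numbered replicates did not deviate together (correlations of -0.24, -0.10 and -0.02 over the 489 genes for replicates 1, 2 and 3), so the numbers are not taken as pairs. With a replicate block limma called 10 higher and 478 lower. A count-based alternative was not run because the files hold CPM. At 6 to 70 implied reads per gene and library, depth limits each value.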
